A study of Homo sapiens with 6 samples.

Results

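MYC and the MAX network, a family of transcription factors that meet at the same DNA motif, were followed in 6 RNA-seq libraries of C4-2, a castration-resistant prostate cancer cell line derived from LNCaP. The 10 members (MYC, MYCN, MAX, MXD1, MXI1, MXD3, MXD4, MNT, MLX and MGA) were taken by symbol from the 55765 gene symbols counted, and a row was found for each of them. Of the libraries, 3 came from cells given DMSO, the solvent, and 3 from cells given 1 nM R1881 (methyltrienolone, a stable synthetic androgen) for 72 h, a supraphysiological androgen level (SAL). All 6 cultures were of the same cell line and were grown in DMEM with FBS. Whether steroids were stripped from the serum is not given in the sources used here. The comparison asks which members were higher or lower in SAL than in DMSO in cultures with the same replicate number.

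MYC is a basic helix-loop-helix leucine zipper factor that activates genes of growth, ribosome assembly and nucleotide synthesis, and it binds the E-box CACGTG only as a dimer with MAX. MXD1, MXI1, MXD3, MXD4 and MNT compete for MAX, bind the same E-box and recruit the SIN3-HDAC corepressor. MLX is a parallel hub that pairs with the glucose-responsive factors MLXIP (MondoA) and MLXIPL (ChREBP) and with some of the same repressors, and MGA joins MAX in a Polycomb complex. In the prostate, MYC is an oncogene that is often gained in advanced tumours, and MYCN is linked to neuroendocrine progression.

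Some network genes carry the network's own motif, the E-box described above. It is shown here because the promoter window of TERT, the telomerase gene that the study is about, holds it as well. Promoter windows of 300 bases (250 before to 50 after the start site, RefSeq, GRCh38.p14) were matched for 9 of the 10 members, with 14 windows in all. MYC was not matched. CACGTG, which reads the same on both strands, was found in windows of 3 of these 9 genes (MXD4, MNT and MLX), and in windows of 8.77% of the 27305 genes in the RefSeq set and of 12.8% of the 9686 tested genes that were matched. The MXD4 window is given whole, since MXD4 was the member that changed, and the sites of MNT, MLX and TERT with 20 bases on each side. The capitals mark the E-box, and each sequence runs 5′ to 3′ on the strand of its gene.
MXD4 (chr4:2262060-2262359, minus strand): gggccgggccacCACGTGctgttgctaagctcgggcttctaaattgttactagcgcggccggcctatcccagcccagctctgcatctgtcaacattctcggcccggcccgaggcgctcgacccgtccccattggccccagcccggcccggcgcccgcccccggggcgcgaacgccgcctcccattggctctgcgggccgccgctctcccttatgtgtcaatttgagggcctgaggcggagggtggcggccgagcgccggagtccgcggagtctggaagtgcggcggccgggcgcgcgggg
MNT (chr17:2401228-2401273, minus strand): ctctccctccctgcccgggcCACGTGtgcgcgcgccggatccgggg
MLX (chr17:42567030-42567075, plus strand): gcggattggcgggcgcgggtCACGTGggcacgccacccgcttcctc
TERT (chr5:1295206-1295251, minus strand): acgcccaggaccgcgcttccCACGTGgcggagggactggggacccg
The E-box began 238 bases before the start site in MXD4, 193 in MNT, 50 in MLX and 163 in TERT. Such matches describe letters in these windows, and binding was not measured.

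The libraries held between 7864471 and 12532355 counts on genes, and between 6931042 and 9776990 once rRNA genes were removed. Same-numbered DMSO and SAL libraries deviated from their group means together over the 16835 genes tested (correlations of 0.89, 0.86 and 0.74). Of the uniquely mapped reads, 26.7% (SAL replicate 2) to 51.1% (DMSO replicate 3) fell outside the exons counted, which includes reads in introns. Both replicate 2 libraries had the lowest shares of their group. The 7 luminal prostate markers given here, KLK3, FOLH1 and KRT18 among them, were present in every library, with a summed level (CPM, counts scaled to library size after TMM normalization) of 2171 to 3669 CPM in DMSO and 3896 to 7233 in SAL. Markers of other cell types were low or at 0. The basal list summed to at most 0.372 CPM. Of the leukocyte markers, PTPRC and CD3E had no count and CD68 had 1 to 4 counts per library. The fibroblast list reached 10.3 CPM in DMSO and 9.65 in SAL, with COL1A1 at 14 to 88 counts, DCN at 0 to 1 and COL1A2 at 0. In bulk RNA of this kind, fewer cells that express a gene and less RNA per cell cannot be told apart.

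**Figure D1:**
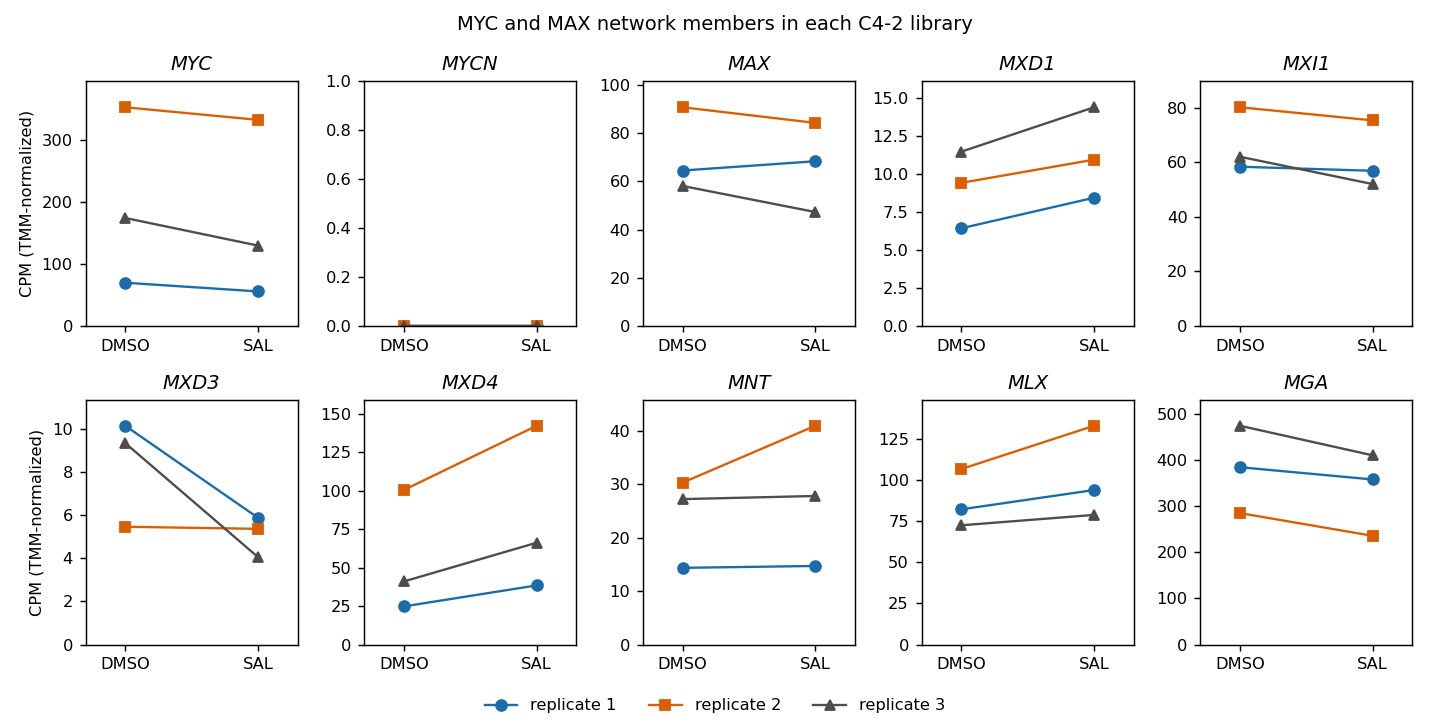
Level of each member in the 6 libraries, in CPM after TMM normalization (vertical axes start at 0 and differ between panels). Lines join the DMSO and SAL libraries of a replicate number. MXD4 was higher in SAL in each pair, MYC was lower in each pair by less than its spread between replicate numbers, and MYCN had no count.

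One member passed the test. MXD4, which encodes a MAX-binding repressor, rose in SAL, and MYC, MXI1, MXD3 and MGA were lower in each pair without passing. Of the 9 members tested, 1 was called up (adjusted p under 0.05 from edgeR's quasi-likelihood test with the replicate number as a block), where 11.5% of all genes tested were called up. None was called down, where 9.37% of all genes tested were. At an unadjusted p under 0.05, 3 were lower and 2 higher. MGA, which had the largest p of these, ranked 5351 by p among the 16835 genes tested, so such p-values were common over all genes. DESeq2 with the block also called 1 member up and 0 down. The median log2 fold change of the members was -0.10, and that of all genes tested was -0.0011. The counts of members called at the adjusted threshold are near what the shares of all genes give for 9 genes. In 8 of the 9 members the 3 pairs had the same direction, as in 51.2% of all genes tested. In none of the 9 were the SAL and DMSO levels free of overlap, as they were in 7.51% of all genes tested.

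**Figure D2:**
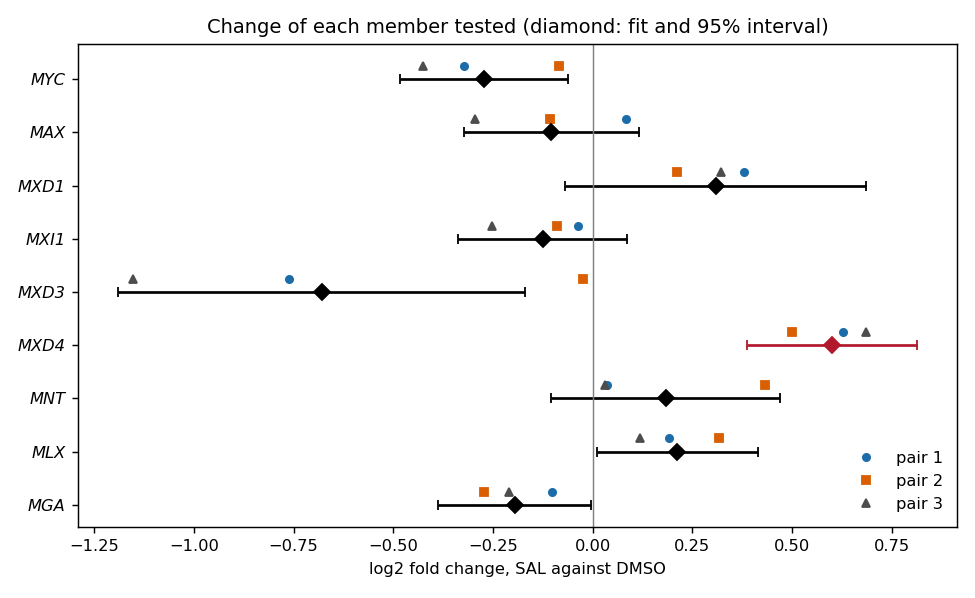
Log2 fold change of SAL against DMSO (horizontal axis) for the 9 members tested. Diamonds and bars give the edgeR fit with its 95% interval, not adjusted for the number of genes, the small symbols give the 3 pairs, and red marks the member called. The interval of MXD4 ran from 0.39 to 0.81, and the pairs of MXD3 lay between -1.15 and -0.02.

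Of the activators, MYC (chromosome 8, 128747680 to 128755197 in GRCh37, plus strand) was counted 564, 2582 and 1305 times in DMSO (replicates 1, 2 and 3, the order used throughout) and 436, 3035 and 1054 times in SAL. This was 69.9, 353 and 174 CPM in DMSO and 55.8, 333 and 130 CPM in SAL. Replicate 2 was highest and replicate 1 lowest in both groups, so the groups overlapped almost completely, while each SAL library was below the DMSO library of its number. The log2 fold change was -0.27 ± 0.10 (SE, 95% interval -0.48 to -0.06), and the pair differences were -0.32, -0.09 and -0.42. It was not past the threshold (adjusted p = 0.0633, edgeR with the replicate block). It was past it without replicate 2, the pair with the smallest difference, at -0.39 (adjusted p = 0.0185). It was not past it without replicate 3, at -0.20 (adjusted p = 0.604, edgeR with the block), or with DESeq2 and the block (adjusted p = 0.146). The exons of MYC overlap those of CASC11 on the opposite strand, and the counting did not use the strand.

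MYCN, the paralogue of neural and neuroendocrine tissue, had 0 counts in all 6 libraries and was not tested. A count of 0 allows up to 3 counts, here 0.329 to 0.410 CPM in a library, so MYCN was not detectable at this depth. The neuroendocrine markers CHGA and SYP had at most 17 and 24 counts, and INSM1 at most 1.

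MAX (chromosome 14, 65472892 to 65569413, minus strand), the partner that MYC and the MXD proteins share, had 64.5, 90.8 and 58.1 CPM in DMSO and 68.4, 84.3 and 47.3 CPM in SAL. It was the member whose pairs differed in direction, with 0.08, -0.11 and -0.30. Its log2 fold change was -0.10 (95% interval -0.32 to 0.12, adjusted p = 0.532 from edgeR with the block). Neither a fall nor a rise within that interval is excluded by these 3 pairs. Its exons overlap those of FNTB on the opposite strand.

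Of the MAX-binding repressors, MXD4 (chromosome 4, 2249159 to 2263836, minus strand), the gene whose promoter is printed above, had 200, 735 and 307 counts in DMSO and 300, 1297 and 537 in SAL. These were 24.8, 101 and 41.0 CPM in DMSO and 38.4, 142 and 66.2 CPM in SAL. The replicate 2 libraries were high in both groups, as for MYC, and the groups overlapped. MXD4 rose 1.52-fold, or by 0.60 ± 0.10 (SE) on the log2 scale (edgeR with the block, adjusted p = 0.000464), and by 0.63, 0.50 and 0.69 pair by pair. Without replicate 3 the log2 fold change was 0.56 and no longer past the threshold (adjusted p = 0.0524). In the fit without the block it was 0.57 (adjusted p = 1.00).

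MXD3, a repressor of the same family known for its expression in proliferating cells, lay on the other side of 0. It had 82, 40 and 70 counts in DMSO and 46, 49 and 33 in SAL, or 10.2, 5.47 and 9.35 CPM against 5.89, 5.37 and 4.07 CPM. DMSO replicates 1 and 3 were above all other libraries, and DMSO replicate 2 was at the level of the SAL libraries. The log2 fold change was -0.68 ± 0.24 (SE, 95% interval -1.19 to -0.17), and the pair differences were -0.76, -0.02 and -1.15. It was not past the threshold (adjusted p = 0.0574, edgeR with the block). It was past the threshold without replicate 2 (-0.99, adjusted p = 0.0147) and without the filter on low counts (-0.67, adjusted p = 0.0339). Some fits placed MXD3 further from the threshold. DESeq2 with the block had -0.68, at an adjusted p of 0.212. In edgeR with the block, leaving out the third pair gave -0.43 (adjusted p = 0.510). Leaving out the first pair gave -0.62 (adjusted p = 0.0864). With at most 82 counts per library, its value is also uncertain because its exons overlap those of PRELID1 and RAB24 (chromosome 5, 176728462 to 176739758, minus strand).

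MXD1 (chromosome 2, 70124820 to 70170077, plus strand), the founding member of the family and linked to differentiation, had 6.44, 9.43 and 11.5 CPM in DMSO and 8.45, 10.96 and 14.4 CPM in SAL. It was higher in SAL in each pair, by 0.38, 0.21 and 0.32 on the log2 scale. With 52 to 117 counts per library, its log2 fold change of 0.31 had a 95% interval of -0.07 to 0.69 (adjusted p = 0.254, edgeR with the block). MXI1 (chromosome 10, 111967363 to 112047123, plus strand) had 58.4, 80.1 and 62.0 CPM in DMSO and 56.9, 75.3 and 52.0 CPM in SAL. It was lower in SAL in each pair, with log2 differences of -0.04, -0.09 and -0.25. Its log2 fold change of -0.13 was not past the threshold (adjusted p = 0.421, edgeR with the block). MNT (chromosome 17, 2287367 to 2304398, minus strand), the most widely expressed repressor of the network, had 14.4, 30.4 and 27.3 CPM in DMSO and 14.7, 41.0 and 27.8 CPM in SAL. Its pairs were 0.03, 0.43 and 0.03, so the difference came from replicate 2, and its log2 fold change of 0.18 (adjusted p = 0.387) became 0.02 without that replicate. Differences in response between the repressors were not tested.

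MLX (chromosome 17, 40719090 to 40725257, plus strand), the parallel hub, had 82.3, 107 and 72.6 CPM in DMSO and 94.0, 133 and 78.9 CPM in SAL. It was higher in SAL in each pair, by 0.19, 0.32 and 0.12, and its log2 fold change of 0.21 ± 0.09 (SE) was not past the threshold after adjustment (adjusted p = 0.134, edgeR with the block). MGA (chromosome 15, 41913332 to 42065279, plus strand), the giant member with a T-box as well as a helix-loop-helix domain, had 384, 284 and 474 CPM in DMSO and 357, 235 and 410 CPM in SAL. Replicate 2, the highest for MYC, was the lowest for MGA in both groups. It was lower in SAL in each pair, with log2 differences of -0.10, -0.27 and -0.21, and its log2 fold change of -0.20 ± 0.09 (SE) was not past the threshold (adjusted p = 0.147, edgeR with the block).

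**Figure D3:**
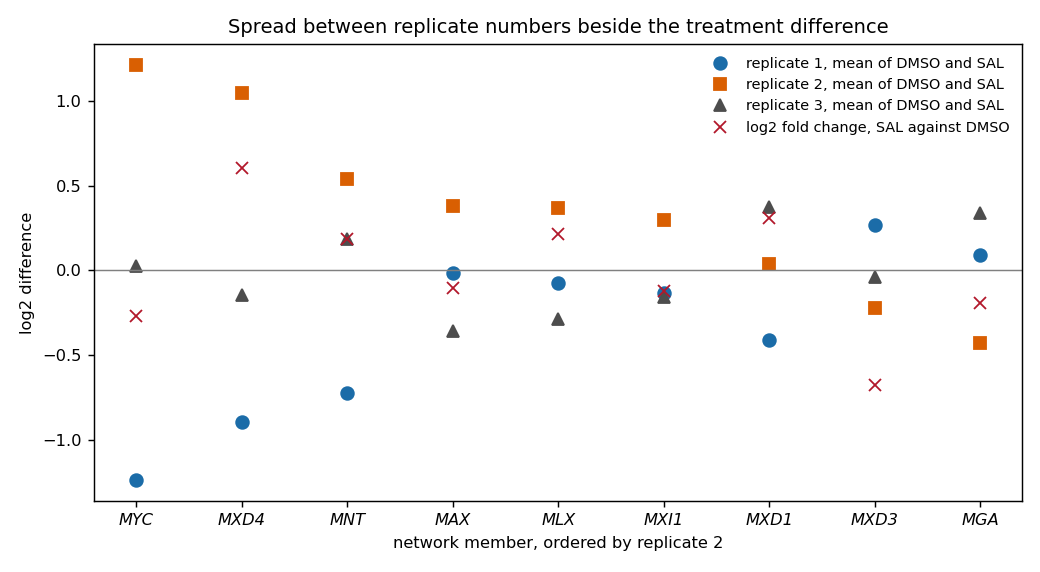
Difference of each replicate number from the mean of the 6 libraries (filled symbols, each the mean of a DMSO and a SAL library) and the SAL against DMSO change (crosses), on the log2 scale, for the 9 members tested. MYC ran from -1.24 in replicate 1 to 1.21 in replicate 2, beside a treatment difference of -0.27.

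Of the 9 members tested, 8 differed more between replicate numbers than between treatments. The highest library was 6.32-fold above the lowest for MYC, 5.74-fold for MXD4 and 2.85-fold for MNT, and between 1.54-fold and 2.50-fold for the other 6 members tested. When the squared deviations of log2 CPM were split, the replicate number held 97.6% of those of MYC and the treatment 1.87%, and for MXD4 these were 87.4% and 12.4%. MXD3 was the exception, with 20.8% and 52.0%. MYC, MXD4 and MNT shared the order of replicates 1, 3 and 2 from low to high in both groups. The 5 genes whose log2 CPM over the 6 libraries was most like that of MYC, of 10308 with a mean of at least 10 CPM, were MRPL4, ARID5A, B3GALT6, EEF2 and RAI1 (Pearson correlations of 0.9982 to 0.9998). These points share the replicate numbers, and none of the 5 was called.

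MYC and MXD4 shared the replicate pattern, and their ratio within a library varied less within a group than either level. There were 2.82, 3.51 and 4.25 MYC counts per MXD4 count in DMSO and 1.45, 2.34 and 1.96 in SAL, or 3.53 ± 0.72 against 1.92 ± 0.45 (SD, n = 3). All SAL values were below all DMSO values, and this ratio does not depend on the depth of a library. It is not free of library differences that vary between genes, such as those that moved with GC content (48.8% for MYC and 63.5% for MXD4). Of the 16755 other genes with a count in every library, 5.23% had a ratio to MYC that was lower in SAL without overlap. Among the other 7 members tested, the ratio overlapped between the groups in each case. The ratio was singled out after its values had been seen.

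To compare levels between genes, CPM was divided by the summed length of all annotated exons of the gene (the exon union) in kb. In DMSO, MYC had 32.6 ± 23.4 CPM per kb (SD, n = 3), MLX 20.5 ± 4.15, MGA 18.96 ± 4.71, MAX 11.4 ± 2.77, MXI1 11.3 ± 1.97 and MXD4 8.07 ± 5.80 CPM per kb. MNT followed with 2.76 ± 0.97, MXD3 with 1.76 ± 0.53 and MXD1 with 1.44 ± 0.40 CPM per kb. Neighbours in this order overlapped, except that MXD4 at its lowest (3.61) was just above MNT at its highest (3.49). MYC ranked 1 of 10 in 4 libraries, 3 in DMSO replicate 1 and 5 in SAL replicate 1. The order depended on the length used. With the length of the canonical transcript, an alternative chosen after seeing the data, MAX (35.4 ± 8.61 CPM per kb in DMSO) stood above MGA (31.2 ± 7.76), and MXD3 (7.80 ± 2.35) above MNT (4.87 ± 1.72), each pair with overlapping libraries. MXD3 was 1.76 CPM per kb with the exon union, so the length used moved its level by more than the spread between libraries. MXD1 moved less, from 1.44 to 1.64 CPM per kb, so the uncertainty of levels per kb differs between genes.

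Among other genes of the network, 3 of the 7 neighbours tested were called, all down (9.37% of all genes tested were called down). TFAP4, an E-box factor and MYC target, was at -0.46 on the log2 scale (adjusted p = 0.01196), TCFL5 at -0.38 (adjusted p = 0.0366) and MLXIPL, the MLX partner ChREBP, at -1.18 (adjusted p = 0.0285, all from edgeR with the block). In TCFL5 the first pair showed no difference (75.8 CPM in DMSO and 75.9 in SAL). MLXIPL had 15, 39 and 21 counts in DMSO and 5, 16 and 16 in SAL. DESeq2 with the block called 0 of the 7, and so did the fits without replicate 2 and without replicate 3. Of the MLX and MondoA targets, TXNIP, a glucose-responsive inhibitor of thioredoxin, fell by 0.53 on the log2 scale (adjusted p = 0.00275), from 39.2, 149 and 58.3 CPM to 26.3, 121 and 34.3 CPM. TXNIP was not called without replicate 3. ARRDC4, the other, was at -0.01 (adjusted p = 0.982).

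Of the proteins through which the members act, 3 of 10 subunits of the SIN3-HDAC corepressor were called, all up (11.5% of all genes tested were called up). These were ARID4B (log2 fold change 0.41, adjusted p = 0.00535), SAP30 (0.49, adjusted p = 0.0165) and RBBP7 (0.28, adjusted p = 0.0459, all from edgeR with the block). The list had a median log2 fold change of 0.14, with 7 members higher. DESeq2 with the block called 1 of the list, as did edgeR without replicate 2, and without replicate 3 it called 0. Of 15 MYC cofactors, PAF1 of the polymerase elongation complex was called up (0.41, adjusted p = 0.0211) and WDR5, a histone methylation scaffold, down (-0.35, adjusted p = 0.0285). That is 6.67% of this list in each direction, below the shares of all genes tested (11.5% up and 9.37% down). Of 10 subunits of the MGA Polycomb complex, TFDP1, the E2F dimer partner, was called down (-0.50, adjusted p = 0.00350), or 10% of the list, near the 9.37% of all genes tested. None of these 3 was called without replicate 3. PAF1 was not called without replicate 2 either, and DESeq2 called 0 of the cofactors and 1 of the complex.

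Genes that act on MYC protein or transcript included 4 calls among the 13 of the turnover list, all down, against 9.37% of all genes tested. SKP2, a ubiquitin ligase subunit that acts on MYC, had 98.7, 69.2 and 91.0 CPM in DMSO and 59.7, 38.3 and 57.8 CPM in SAL, without overlap, and fell by 0.74 on the log2 scale (adjusted p = 5.64e-05, edgeR with the block). AURKA and PLK1, mitotic kinases that stabilize MYC proteins, were at -0.78 (adjusted p = 0.000116) and -0.66 (adjusted p = 0.000140). KIAA1524 (CIP2A), an inhibitor of the phosphatase that destabilizes MYC, was at -0.79 (adjusted p = 0.000126, edgeR with the block). DESeq2, and edgeR with any replicate number left out, also gave 4 calls down in this list. SKP2, AURKA and PLK1 are also genes of the cell cycle. FBXW7, GSK3B and the other 7 genes of the list were not called. Of 9 transcript regulators tested, PVT1, the noncoding neighbour of MYC, was called down, from 66.0, 65.6 and 97.3 CPM to 47.4, 54.2 and 65.4 CPM (log2 fold change -0.44, adjusted p = 0.00522). FUBP1, which acts on the MYC promoter, was called down (-0.29, adjusted p = 0.0354) and IGF2BP3, an mRNA-binding protein, up (0.35, adjusted p = 0.0403). The 2 calls down were 22.2% of this list, where 9.37% of all genes tested were called down. The call up was 11.1% of this list, near the 11.5% of all genes tested. IGF2BP3 was called neither with DESeq2 nor with any replicate number left out. The calls down in this list were 1 with DESeq2 and without replicate 1, and 0 without replicate 3.

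**Figure D4:**
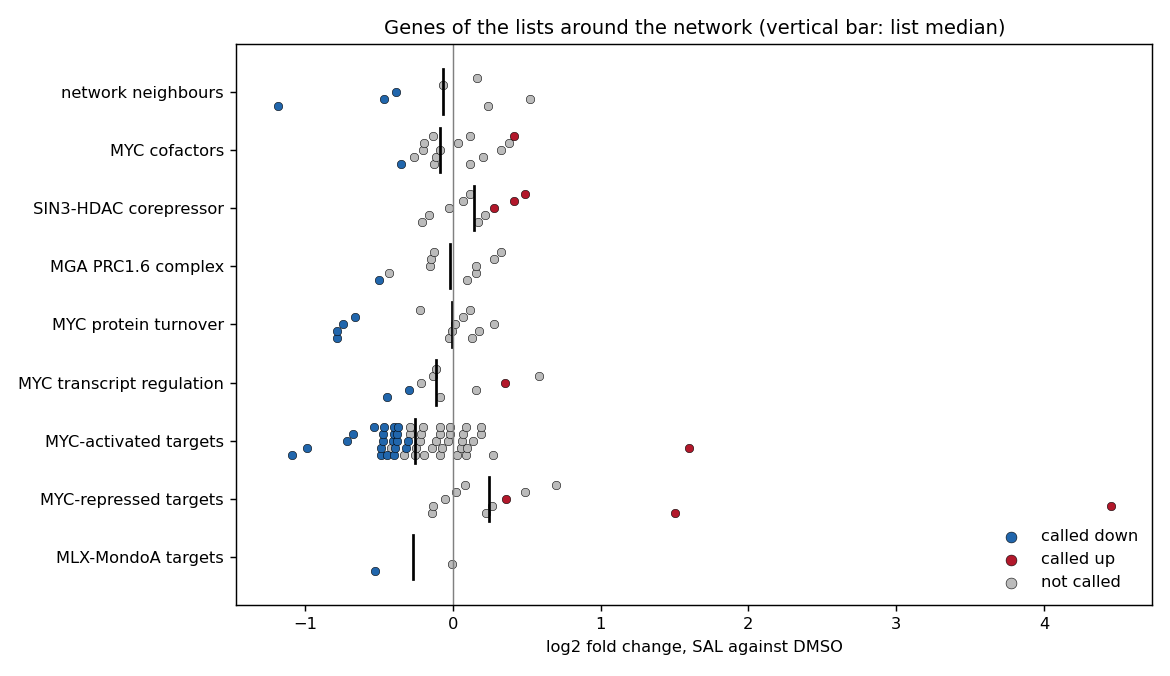
Log2 fold change of SAL against DMSO for every tested gene of the 9 lists around the network (points; blue called down, red called up, grey not called), with the list median as a vertical bar. Of 52 MYC-activated targets 21 were called down, and NDRG1 lies alone at 4.45.

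Genes known as activated by MYC were mostly lower in SAL. Of 52 tested, 21 were called down (40.4%, against 9.37% of all genes tested), 1 was called up and 40 were lower in SAL (50.2% of all genes tested were lower), with a median log2 fold change of -0.25. This list, like the others, was chosen with earlier results of these data known, so its shares beside those of all genes are a description only. MTHFD2, of mitochondrial folate metabolism, had 300, 247 and 265 CPM in DMSO and 192, 161 and 143 CPM in SAL, without overlap (log2 fold change -0.72, adjusted p = 5.95e-05 from edgeR with the block). HSPD1, the mitochondrial chaperonin, TFAM, the mitochondrial transcription factor, and E2F1, a driver of S phase, were called down as well, at -0.46, -0.48 and -0.68 on the log2 scale (adjusted p = 0.00161, 0.00164 and 0.00187, edgeR with the block). TERT, singled out as the gene of the study, was also among the 21. ODC1, the rate-limiting enzyme of polyamine synthesis and a known androgen-induced gene, was the 1 target called up, of 12 that were higher in SAL. It had 335, 467 and 295 CPM in DMSO and 818, 1592 and 980 CPM in SAL, a rise of 3.02-fold (adjusted p = 6.61e-08). Without replicate 3, 2 of the targets were called down, where 2.84% of all genes were. Without the block 0 were called in either direction, and DESeq2 with the block called 17 down.

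Of the 12 genes known as repressed by MYC, 3 were called up, where 11.5% of all genes tested were, and 9 were higher in SAL, with a median log2 fold change of 0.25 (all genes -0.0011). NDRG1, a stress-response gene that androgens are also known to induce, had 12.02, 67.8 and 39.4 CPM in DMSO and 254, 1350 and 981 CPM in SAL. No DMSO library came near a SAL library, and the rise was 21.9-fold (4.45 ± 0.11 SE on the log2 scale, adjusted p = 2.64e-12, edgeR with the block). CDKN1C, an inhibitor of cyclin-dependent kinases, was called up from a low level, with 4, 18 and 4 counts in DMSO and 12, 55 and 17 in SAL (2.83-fold in the fit, adjusted p = 0.00874). HBP1, a transcriptional repressor linked to arrest, was called up by 0.36 (adjusted p = 0.0182). Without replicate 3, and with DESeq2, 1 of the 12 was called up. The lists hold genes that other pathways also control, and whether MYC bears on any of these differences was not tested. In the fit without the replicate block, 0 genes of the 9 lists were called.

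The E-box printed above was counted in the target list too. Of 43 MYC-activated targets with a matched promoter, 21 held CACGTG in a window (48.8%, against 12.8% of the matched genes tested). The list was made of genes already known as MYC targets, so this share describes the list and not these libraries. Within the list CACGTG was present in 7 of 17 targets called down (41.2%) and in 13 of 25 targets not called (52.0%).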

How the data were processed

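RNA-seq libraries of total RNA (SMARTer stranded kit) were made from C4-2 cultures after 72 h in DMSO or 1 nM R1881, with 3 libraries each. Per the study's methods and processing notes, the authors trimmed the data, aligned 1 mate of each pair to hg19 using TopHat2 2.1.0, and counted on exons using HTSeq 0.11.2, ignoring strand. What they deposited are unnormalized counts per symbol. Groups and replicate numbers came from the labels, and the pairing from the paired test in the study's methods and from correlations over 0.1 in every pair.

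Here 523 rRNA symbols were removed, as in the study, and edgeR's filterByExpr left 16835 genes, 9 of the 10 members among them. The difference between SAL and DMSO was tested with edgeR 4.0.16 (R 4.3.3), using its quasi-likelihood F test, TMM, robust dispersions, the replicate number as a block and Benjamini-Hochberg adjustment over all genes tested. Genes with an adjusted p under 0.05 were called. SE was taken as the size of the log2 fold change divided by the root of the F statistic, and pair differences use log2 CPM with a prior count of 2. The scripts were tested on simulated counts first, where the share of false calls was above the nominal threshold, so calls with an adjusted p near 0.05 are uncertain. Floors cover counting error only, and p-values and intervals the spread of these 6 libraries, which the study describes as made in independent rounds.

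Positions and exon lengths came from GENCODE release 44 lifted to GRCh37 (hg19), which may differ from the annotation the authors counted on. All members and the called genes with the smallest p of each list, at most 4 per direction, were named. The members and lists were chosen with earlier results of these data known. The alternatives were DESeq2 1.42.0 with the block, its size factors in edgeR, rRNA genes retained, no block, each replicate number left out, no filter, and a minimum of 10 counts in all libraries. A correction for GC content and transcript length with the block was added after seeing the data, with values for 84.0% of the genes tested. Some cell type markers are not reported here.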

Additional observations from a re-analysis of the deposited data

How the results depend on the processing

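Over the 10 alternatives, each of the 9 members kept its direction, and MAX, MXD1, MXI1, MNT, MLX and MGA were not past the threshold under any. Without the replicate block, the fit that ignores the pairing, 21 genes of 16835 were called in all (18 up, 3 down), of which 0 were members and 0 were MYC-activated targets in either direction, and MYC was at -0.20 (adjusted p = 1.00, edgeR). Without the filter, 1 member, MXD3, was called down. With the correction for GC content and length, chosen after seeing the data, 2 members were called down, MYC at -0.28 (adjusted p = 0.01725) and MXD3 at -0.80 (adjusted p = 0.0124, edgeR with the block), and MXD4 remained up at 0.50. With each replicate number left out in turn, the members called up were 0 to 1, the members called down 0 to 2 (MYC and MXD3, without replicate 2), the targets called up 1 to 3, the targets called down 2 to 24, and MYC was between -0.39 and -0.20. The low count without replicate 3 came with 1233 calls over all genes, against 3508 with all libraries. Over the 10 alternatives the adjusted p was between 0.01725 and 1.00 for MYC, 0.0124 and 1.00 for MXD3, and 4.14e-07 and 1.00 for MXD4. The cause of these moves was not tested. MXD3 and MXD1 had the fewest counts of the members tested, and their values are the least precise.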

Other observations

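The spread between replicate numbers moved with GC content across genes. Over 14133 tested genes with a value, the deviation of replicate 2 from the mean had a Spearman correlation of 0.75 with the GC content of the transcript, and that of replicate 1 of -0.59, while the SAL against DMSO change had 0.12. These are correlations across genes that share the same libraries, and genes are not independent replicates. MXD4 (63.5% GC) and MNT (61.3%) were high in replicate 2, and MGA (43.2%) was low there. Other members did not follow this order. MXI1, with 43.7% GC, was 0.29 above its mean in replicate 2 on the log2 scale, where MGA was at -0.43. MYC, with a transcript of 48.8% GC, in the 53.8th percentile of these genes, had the widest range of the members, and the 5 genes most like it had 59.9% to 64.2% GC. MXD3, with 65.6% GC, was lowest in replicate 2 when both groups were averaged. The part of GC content in these levels was not tested beyond the corrected fit given above.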
